A study of Mus musculus with 4 samples.

Results

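The V and J gene segments of the T cell receptor alpha and beta chains were examined in CD8+ T cells of mouse lung. They were taken as every gene whose symbol is Trav, Traj, Trbv or Trbj followed by a number, which gave 239 of the 55401 genes in the tables: 130 Trav, 60 Traj, 35 Trbv and 14 Trbj. Cells positive for CD3 and CD8 were sorted from the lungs of C57BL/6J mice, and their polyA RNA was amplified with a SMART-Seq v4 low-input kit before library preparation. There were 4 groups: IPF-LC mice given an isotype antibody, IPF-LC mice after CD4 depletion, LC mice given an isotype antibody, and LC mice after CD4 depletion. Values given as a series follow this order of libraries. The labels do not spell out the names of the models, and all 4 groups share the C57BL/6J background. Each group had 1 library, and the number of mice behind it is not stated, so no value has a replicate error and no comparison of a pair of libraries carries a test.

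A T cell receptor chain is made when a developing T cell cuts and joins its DNA, so that 1 V segment and 1 J segment (with a D segment between them in the beta chain) are read together with a constant region. The V segment encodes most of the variable domain, and the J segment and the joints complete the loop that contacts the antigen most directly. Conventional CD8+ T cells of an animal use many different V segments, an expanded clone raises the share of its own V and J segments, and some T cell types use nearly fixed pairs, such as Trav11 with Traj18 in invariant natural killer T cells. The C57BL/6 alpha locus carries copies of a block of V segments, whose members have the letter d or n in their symbols.

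J segments are short. Sequences were read from GENCODE M21 transcripts (GRCm38) by Ensembl identifier, which found 290 of 290 transcripts of the 239 segments, and all 188 segments with a single transcript had the length given in the deposited tables. The following whole J segments are shown because Traj18 and Traj33 mark the invariant natural killer T cell and MAIT receptors and the beta segments stand for the 2 beta clusters, written 5′ to 3′ with the codons TTN, GGN, NNN and GGN, read without a gap, in capitals where it occurs. That pattern includes the phenylalanine-glycine-any-glycine codons for which J segments are known. It was found on the sense strand of 46 of 60 Traj (76.7%) and 11 of 14 Trbj (78.6%), and on the antisense strand of 0, and Traj33 does not contain it.
Traj18: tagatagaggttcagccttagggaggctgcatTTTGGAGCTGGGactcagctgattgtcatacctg
Traj33: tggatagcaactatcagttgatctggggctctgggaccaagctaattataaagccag
Trbj1-1: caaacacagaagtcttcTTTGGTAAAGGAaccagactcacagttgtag
Trbj2-7: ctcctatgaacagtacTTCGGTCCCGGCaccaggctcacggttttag

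The V segments that lead the beta chain results are shown by their last 60 bases, the end that joins to D and J, with TGTGC in capitals. These letters hold the codon of the conserved cysteine that opens the antigen-contact loop. They occur on the sense strand within the last 30 bases of 26 of 35 Trbv (74.3%) and 101 of 130 Trav (77.7%), and on the antisense strand of 0; Trbv20 does not contain them there.
Trbv12-1: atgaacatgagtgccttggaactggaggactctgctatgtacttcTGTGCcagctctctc
Trbv12-2: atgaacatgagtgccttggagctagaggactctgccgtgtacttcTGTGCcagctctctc
Trbv13-1: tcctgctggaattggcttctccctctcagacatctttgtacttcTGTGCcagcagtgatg
Trbv13-2: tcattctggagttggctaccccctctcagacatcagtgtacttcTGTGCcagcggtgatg
Trbv13-3: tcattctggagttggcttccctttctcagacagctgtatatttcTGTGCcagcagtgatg
Trbv16: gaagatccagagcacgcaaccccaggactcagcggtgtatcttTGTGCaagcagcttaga
Trbv19: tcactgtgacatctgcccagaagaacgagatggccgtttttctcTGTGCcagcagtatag
Trbv2: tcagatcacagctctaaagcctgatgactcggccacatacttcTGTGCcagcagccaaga
Trbv5: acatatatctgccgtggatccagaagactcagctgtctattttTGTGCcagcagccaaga
Trbv20: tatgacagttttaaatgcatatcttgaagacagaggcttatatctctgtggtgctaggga

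All 74 J segments were listed at 0 counts in all 4 libraries, so no J share and no J diversity could be formed. The Traj segments ran from 29 to 72 bases (median 60.75) and the Trbj segments from 45.5 to 53 bases (median 49), and the deposited effective length, the number of positions at which a fragment can start, was 0 for each of them in every library. In genes of at least 2000 bases the effective length was shorter than the length by a median of 306.57 to 311.98 bases, which is several times the length of any J segment. Between 6277 and 6345 genes per library had an effective length of 0, up to a length of 164 to 166 bases, and between 8 and 19 of those genes had any count. The 0 counts of the J segments, the invariant Traj18 and Traj33 included, are therefore the values the tables give to nearly all features of that length, and they carry no information on J usage.

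V segments, which are longer, were measurable in most cases. Of the Trav, 112 of 130 had a count in some library: 107 of the 110 that GENCODE M21 types as V genes and 5 of the 20 typed as pseudogenes. Of the Trbv, 23 of 35 had one: 22 of 22 V genes and 1 of 13 pseudogenes, Trbv24. Trav11, Trav7n-6 and Trav9d-4 were the V genes at 0 in every library. The median effective length was 44.6 bases in the 18 Trav at 0 and 87.8 bases in those with a count, and 41.4 against 93.7 bases for the 12 Trbv at 0 and the rest. Across segments with a count, effective length and mean count had a Spearman rho of 0.46 in 112 Trav and 0.54 in 23 Trbv; the segments share the same 4 libraries, and this is given as a description.

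**Figure D1:**
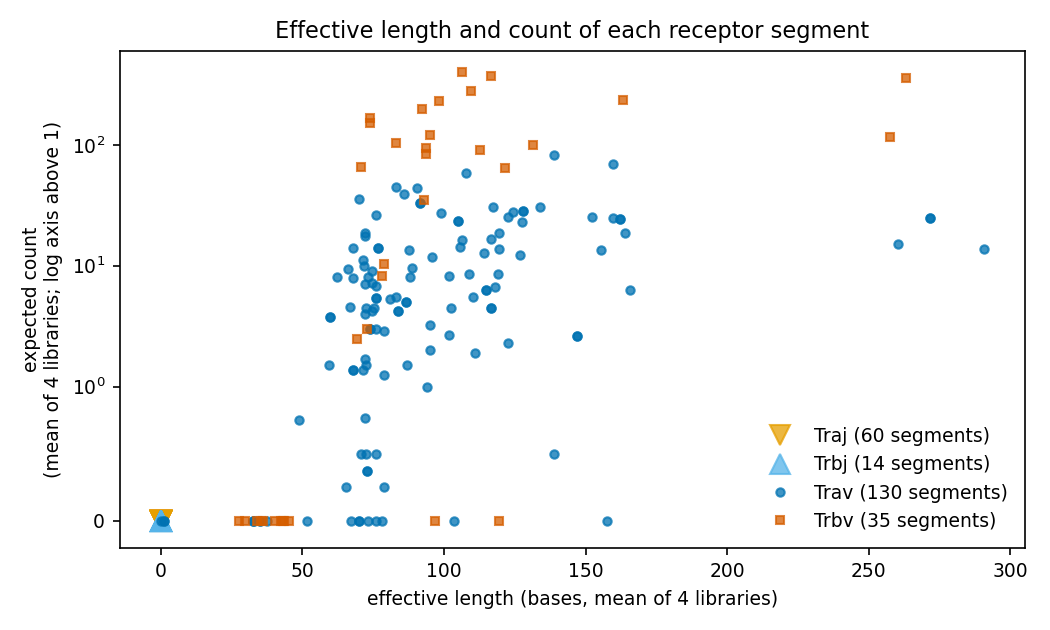
Mean expected count over the 4 libraries (vertical axis, logarithmic above 1) against mean effective length in bases (horizontal axis), 1 point per segment and 1 colour per class. The 60 Traj and 14 Trbj lie together at effective length 0 and count 0, and the Trbv reach higher counts than the Trav at like effective lengths.

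The V counts were a small part of the libraries. Library totals were between 14946569 and 16217672 expected counts. Trav segments summed to 1439, 1406, 1455 and 1460 counts and Trbv segments to 3459, 3366, 2691 and 3604 counts, or 0.0180 to 0.0229% of a library for Trbv. The defining markers of the sort, Cd3e, Cd8a and Cd8b1, were present in every library, at 1658 to 2206 counts-per-million (CPM, after TMM scaling) in sum. RNA of other cells was present as well: 6 of 6 macrophage and monocyte markers were detected and summed to 2520, 818, 2400 and 37.9 CPM, mostly from Lyz2, with Adgre1, Fcgr1 and Mertk at 0 in the depleted LC library. The 3 B cell markers summed to between 9.31 and 23.6 CPM and the 3 NK cell markers to between 3.96 and 21.7 CPM. Of the CD4 T cell markers, Cd4 had 73, 0, 12 and 16 counts and Zbtb7b had 28, 3, 24 and 27. Foxp3 instead had 23.0, 456, 59.9 and 510 counts and was higher in both depleted libraries. Rag1 and Rag2, which cut the receptor loci during development, were at 0 in all libraries, and Dntt, which adds bases at the joints, had 56 counts in the isotype IPF-LC library and 0 elsewhere. In bulk libraries, fewer cells of a type and less RNA per cell cannot be told apart.

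The summed beta V level stood apart in 1 library. Trbv segments together reached 221 CPM (95% interval 214 to 229), 216 CPM (209 to 223), 174 CPM (168 to 181) and 230 CPM (222 to 238), so that the isotype LC library was the low one and the other 3 lay close together. Intervals here and below are 95% intervals for counting error only, exact or Wilson save for the multinomial ones of diversity. They treat reads as independent, which reads without molecular identifiers are not, so they can be too narrow. Depletion in LC gave a log2 ratio of 0.40 (0.33 to 0.47) for the Trbv sum and depletion in IPF-LC gave -0.04 (-0.10 to 0.03). The IPF-LC over LC ratio was 0.35 (0.27 to 0.42) with isotype antibody and -0.09 (-0.16 to -0.02) after depletion. Trav segments together had 92.1, 90.2, 94.2 and 93.1 CPM, and their ratios lay between -0.05 and -0.02 with every interval spanning 0.

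The lower beta V sum of the isotype LC library went with lower beta constant regions. Trbc1 and Trbc2, the alternative constant regions of the beta chain, together had 4808, 4838, 4231 and 5168 transcripts-per-million (TPM), and the Trbv sum was 0.547, 0.508, 0.514 and 0.518 of that. For the alpha chain, the Trav sum was 0.636, 0.623, 0.621 and 0.621 of Trac, its only constant region. Each ratio thus stayed within a narrow range while the Trbv over Trav count was 2.40, 2.39, 1.85 and 2.47. Trbc1 made up 30.6, 31.6, 30.7 and 32.5% of the Trbc counts. Trac itself was not lower in the isotype LC library, with 638, 707, 658 and 654 CPM and 1798, 1831, 1965 and 1846 TPM. The receptor constant and CD3 chain genes (7 of 7 detected, Trac included) summed to 4175, 4043, 3417 and 4101 CPM. That sum was again lowest in the isotype LC library, as was each gene of the list except Trac. The CD8 T cell markers did not follow that order, with 2206, 1658, 1682.5 and 1879 CPM and their lowest sum in the depleted IPF-LC library. Lyz2, which made up most of the macrophage marker sum, had 2408, 788, 2089 and 33.4 CPM. Adgre1, Csf1r, Cd68, Fcgr1 and Mertk were instead each highest in the isotype LC library. Csf1r had 40.1 CPM in the isotype IPF-LC and 148 CPM in the isotype LC library, and Cd68 had 42.2 and 101 CPM. Every listed macrophage marker was lower after depletion in both models. The part of macrophage RNA in these values was not tested.

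Beta chain usage was led by the same few segments in every library. The shares below are percent of all Trbv counts of a library. Trbv12-2 had 414, 437, 295 and 442 counts, a share of 12.0, 13.0, 10.96 and 12.3%. Trbv16 had 325, 349, 329 and 471 counts, a share of 9.40, 10.4, 12.2 and 13.1%. Trbv19 had 331, 448, 322 and 322 counts, a share of 9.57, 13.3, 12.0 and 8.93%. The top place went to Trbv12-2 in the isotype IPF-LC library, to Trbv19 in the depleted IPF-LC library and to Trbv16 in both LC libraries, and the Wilson intervals order them in part. In the isotype IPF-LC library Trbv12-2 lay above both others, in the depleted IPF-LC library Trbv12-2 and Trbv19 overlapped and lay above Trbv16, in the isotype LC library all 3 overlapped, and in the depleted LC library Trbv12-2 and Trbv16 overlapped and lay above Trbv19. Trbv12-1 had 9.22, 6.89, 7.28 and 10.04%, Trbv17 8.01, 6.59, 8.29 and 5.77%, and Trbv3 7.66, 6.56, 5.80 and 8.10%. The 5 most used segments of a library together held 48.2, 50.1, 50.7 and 52.4% of the Trbv counts and the 10 most used 75.8 to 78.5%.

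Set per length, the order changed. A longer V transcript collects more fragments, so levels of different segments were compared by their share of the Trbv TPM. Trbv12-2 and Trbv16 stayed highest, with means over the libraries of 12.5 and 10.7%. They were followed by Trbv12-1 at 8.45%, Trbv17 at 8.07%, Trbv13-2 at 7.65%, Trbv13-1 at 7.17% and Trbv13-3 at 6.90%. Trbv19, whose transcript has an effective length of 263 bases, dropped from a mean count share of 10.9% to a mean TPM share of 4.60%. By subgroup the 3 Trbv12 members held 21.6, 20.8, 18.5 and 23.0% of Trbv TPM and the 3 Trbv13 members 22.2, 21.0, 22.0 and 21.6%, which left these subgroups nearly level with each other in 3 of 4 libraries. T cells with Trbv12, Trbv16 or Trbv15 are known to be removed in mouse strains that carry the class II molecule I-E together with endogenous mammary tumour virus superantigens; C57BL/6 lacks I-E.

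The remaining Trbv segments had smaller shares. Trbv13-1, Trbv13-2 and Trbv13-3, long studied under the older name V-beta-8, had counts of 238, 192, 159 and 196, of 175, 167, 134 and 197, and of 152, 144, 142 and 163. Each of the 3 kept its share within a narrow range: 5.44 to 6.88% for Trbv13-1, 4.96 to 5.47% for Trbv13-2 and 4.28 to 5.28% for Trbv13-3. Trbv31, which lies beyond the constant regions and joins by inversion, had 50, 78, 50 and 81 counts, or 1.45, 2.32, 1.86 and 2.25%. Trbv1, at the far end of the locus, had 96, 114, 90 and 95 counts, and Trbv29 had 122, 123, 67 and 105. Trbv24, a pseudogene in the annotation, had 10, 17, 5 and 9 counts.

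**Figure D2:**
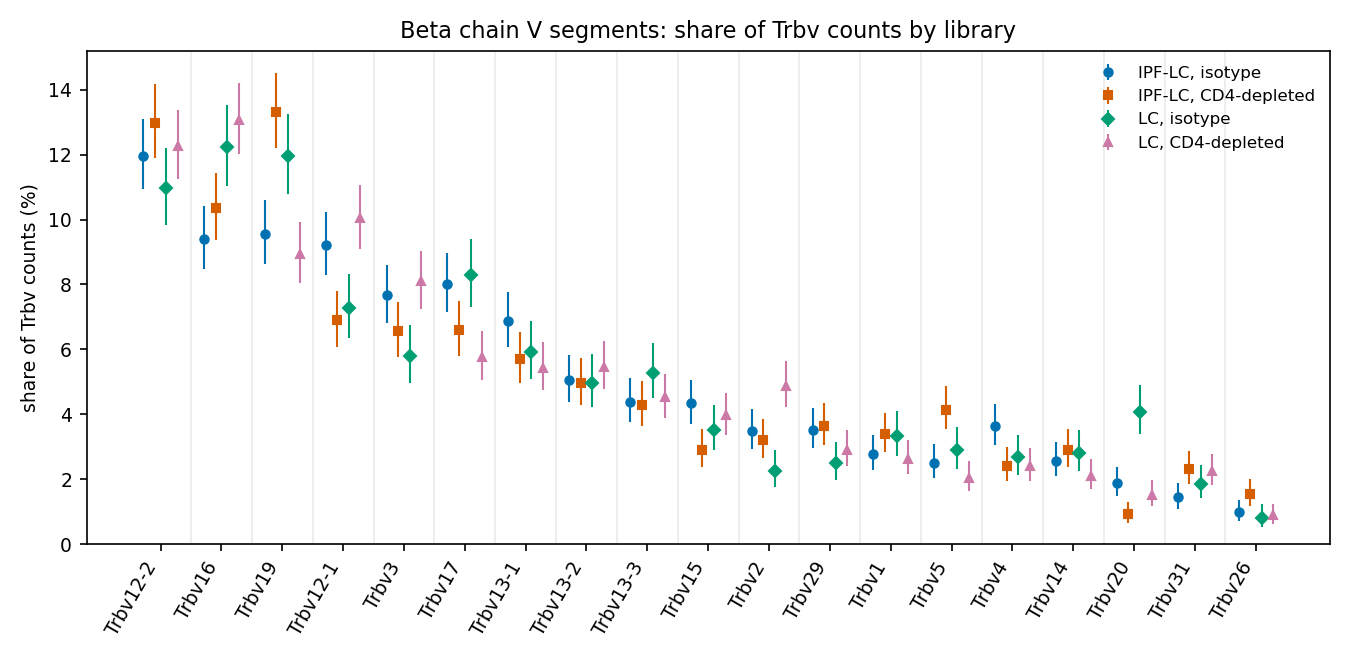
Share of Trbv counts in percent (vertical axis) for the 19 Trbv segments with a mean of at least 20 counts (horizontal axis), 1 point per library with its Wilson 95% interval. Trbv20 stands out with 4.09% in the isotype LC library against 0.92 to 1.88% in the other 3, and Trbv13-2 shows points that nearly coincide.

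Alpha chain usage was spread more thinly, over more segments and fewer counts. Summed by subgroup, Trav14 (9 members) had 247, 254, 247 and 222 counts, or 17.2, 18.1, 17.0 and 15.2% of all Trav counts. Trav12 (10 members) had 205, 215, 255 and 255 counts, or 14.2, 15.3, 17.5 and 17.5%. Trav7 (14 members) had 199, 235, 194 and 223 counts, or 13.8, 16.7, 13.3 and 15.3%. Trav14, Trav12 and Trav7 were the leading subgroups in each library, and their intervals overlapped, save for Trav12 above Trav7 in the isotype LC library, so that little order among them can be given. Trav3 (8 members) followed with 9.81 to 10.4%, Trav9 (11 members) with 5.70 to 9.32% and Trav6 (15 members) with 6.74 to 8.53%. By mean share of Trav TPM, Trav14 had 17.3%, Trav7 14.3%, Trav12 13.4% and Trav3 10.9%, and the order of the next turned, with Trav6 at 9.10% and Trav9 at 4.07%.

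Single Trav segments were small. Trav12-2 had 58, 76, 115 and 81 counts, or 4.03, 5.40, 7.90 and 5.55%, and had the most counts of the Trav in every library except isotype IPF-LC. Trav7-4 had 66, 69.5, 79 and 65 counts, or 4.59, 4.94, 5.43 and 4.45%, and led there. Next by mean share were Trav3-3 with 50, 37, 76 and 69 counts, Trav12n-3 with 57, 54, 36 and 31.5 counts and Trav16n with 39, 31.8, 53 and 51.0 counts. Set per length the order was again different. By share of Trav TPM, Trav12n-3 led in the isotype IPF-LC library at 5.02%, Trav14n-3 in the depleted IPF-LC library at 4.72%, Trav12-2 in the isotype LC library at 6.00% and Trav3-3 in the depleted LC library at 5.65%. By count, no Trav reached the share of the leading Trbv, and 26 of 130 Trav had a mean of at least 20 counts, holding 61.3% of the Trav counts, against 19 of 35 Trbv with 99.3%.

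**Figure D3:**
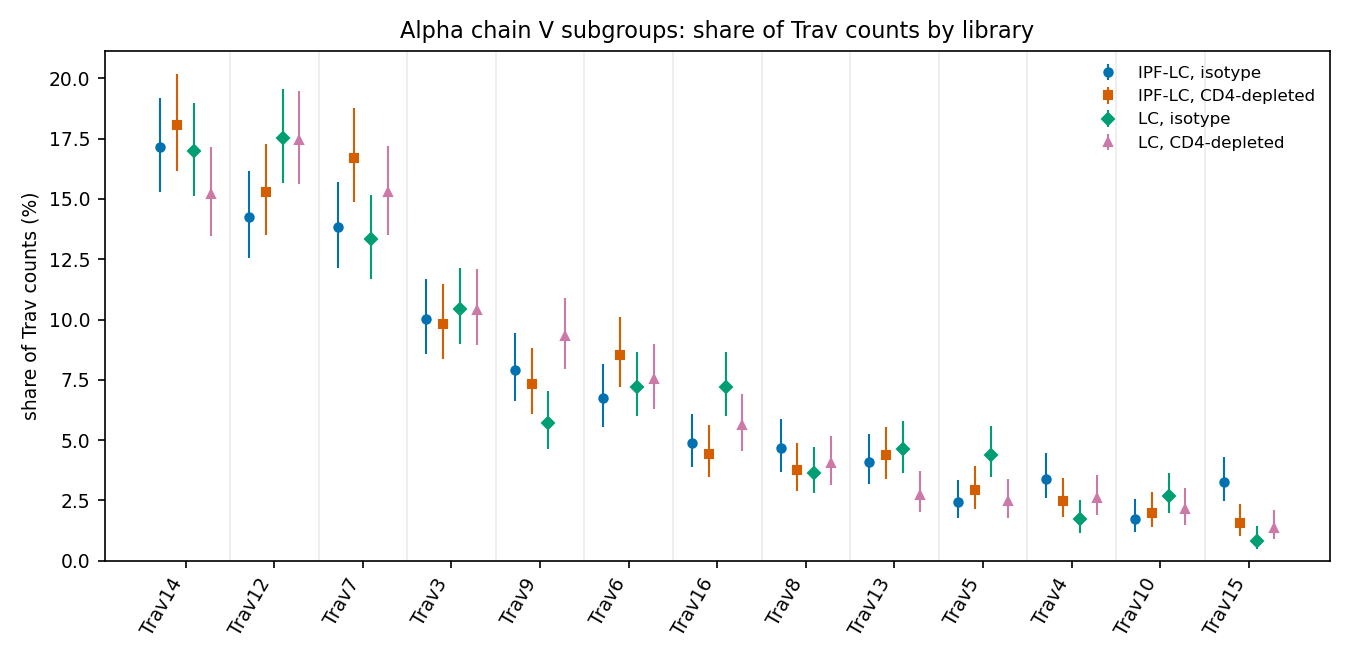
Share of Trav counts in percent (vertical axis) for the 13 Trav subgroups with a mean of at least 20 counts (horizontal axis), 1 point per library with its Wilson 95% interval. Trav14, Trav12 and Trav7 lie between 13.3 and 18.1% in all libraries, and Trav15 is highest in the isotype IPF-LC library at 3.27%.

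Near-identical copies limit how finely the alpha chain can be read. The 130 Trav symbols reduce to 58 names once the letters d and n are removed, and 40 of those names stand for more than 1 copy, with 112 segments between them. Of 104 pairs of copies, 36 were at least 99% identical over their aligned bases and 17 had the same transcripts. All 15 of those 17 pairs that had counts had equal counts in all libraries, to within 0.01, as an even split of shared reads gives; they held 26.4, 26.2, 20.5 and 25.9% of the Trav counts. Copies without a letter, with d and with n held 52.4, 19.3 and 28.4% of Trav counts in the isotype IPF-LC library, and 50.7 to 55.5%, 19.3 to 23.4% and 23.3 to 28.4% over all 4.

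A pair chosen after its values were seen shows how such a split can look. Trav7-2 had 22, 0, 0 and 23 counts and Trav7d-2 had 0, 36, 38 and 0 counts, so the copies exchanged places between libraries. Their sum was 22, 36, 38 and 23 counts. The transcripts are the same over 336 bases, and Trav7d-2 has 1 further base at its 3′ end, the capital in the last line.
Trav7-2: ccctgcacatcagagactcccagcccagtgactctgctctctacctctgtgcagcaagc
Trav7d-2: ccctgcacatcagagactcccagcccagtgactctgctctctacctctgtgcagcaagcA
Trav7-4 and Trav7d-4, which appear among the largest differences below, have 451 bases each and differ by 2 substitutions, C130T and A317C, given as the Trav7-4 base, the position from 1 at the 5′ end of the transcript, and the Trav7d-4 base. The 51 bases around each difference are shown with the differing base in capitals, first bases 105 to 155 and then bases 292 to 342.
Trav7-4: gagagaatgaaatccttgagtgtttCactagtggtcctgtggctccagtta
Trav7d-4: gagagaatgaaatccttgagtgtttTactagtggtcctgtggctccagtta
Trav7-4: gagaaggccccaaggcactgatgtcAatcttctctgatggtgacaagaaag
Trav7d-4: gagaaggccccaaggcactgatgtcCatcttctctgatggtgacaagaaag

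**Figure D4:**
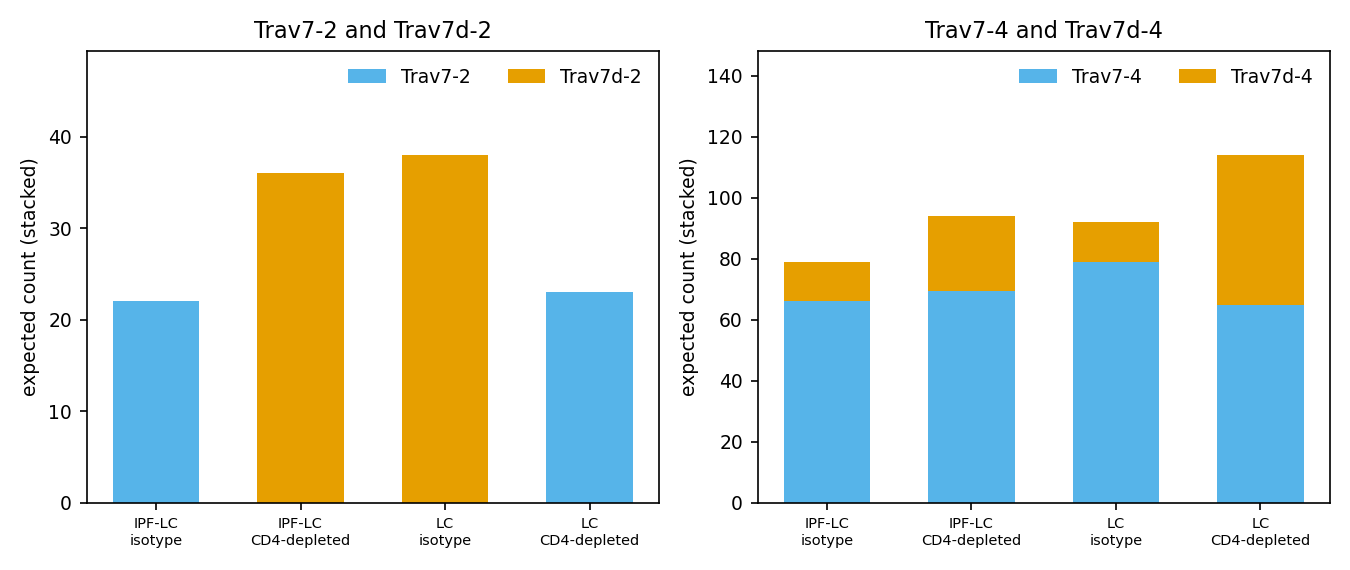
Expected counts (vertical axis, stacked) of Trav7-2 and Trav7d-2 (left) and of Trav7-4 and Trav7d-4 (right) in each library (horizontal axis). The left pair shows counts in only 1 copy per library, and in the right pair Trav7d-4 rises from 13 to 49 counts in LC after depletion while Trav7-4 goes from 79 to 65.

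Diversity differed little between libraries for the beta chain. At least 3 counts were found for 22, 22, 21 and 22 of 35 Trbv. The inverse Simpson index, which is the number of equally used segments that would give the same chance of drawing a pair alike, was 14.1 (13.7 to 14.6), 13.4 (12.9 to 13.9), 13.6 (13.1 to 14.1) and 13.2 (12.8 to 13.6) for Trbv, where the intervals of isotype IPF-LC and depleted LC do not overlap. For Trav, at least 3 counts were found for 79, 83, 81 and 75 of 130. The inverse Simpson index of Trav was 51.0 (48.1 to 54.3), 47.0 (44.0 to 50.6), 40.3 (37.0 to 44.2) and 45.7 (42.9 to 49.0). Isotype LC was the low library for Trav and isotype IPF-LC the high one, and their counting intervals do not overlap. With copies summed the Trav index was 23.5, 22.8, 20.8 and 20.9, which brings the LC libraries level with each other.

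With CD4 depletion in IPF-LC, few V shares moved far. The comparison used the 45 segments with a mean of at least 20 counts, 26 Trav and 19 Trbv, and the log2 ratio of their shares. Of these, 1 was higher by 2-fold or more in the depleted library and 2 were lower by as much, 6.67% in either direction. Over all 11836 genes with the same mean count, on TMM-scaled CPM, 8.39% were 2-fold higher and 12.8% lower, 21.2% in either direction, and the median absolute log2 ratio was 0.43 against 0.23 for the 45 segments. Among the 5619 genes whose mean lay between 20 counts and the highest mean of a segment, 37.9% were past 2-fold, and 36.8, 30.1 and 30.3% in the comparisons that follow. The share of members past 2-fold was thus below both, which is given as a description. The counting interval lay above 0 for 5 segments and below 0 for 6.

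With depletion in IPF-LC, the beta segments whose whole counting interval lay farthest from 0 were Trbv20 on the lower side and Trbv5 and Trbv19 on the higher side. Trbv20 went from 65 counts, 1.88% (1.48 to 2.39), to 31 counts, 0.92% (0.65 to 1.304), a log2 ratio of -1.03 (-1.70 to -0.39). Trbv5 went from 86.8 to 139.7 counts, 2.51 to 4.15%, a log2 ratio of 0.73 (0.33 to 1.13). Trbv19 went from 9.57 to 13.3%, a log2 ratio of 0.48 (0.27 to 0.69), which made it the most counted Trbv of that library. Trbv31 had a ratio of 0.68 (0.15 to 1.22), Trbv4 of -0.61 and Trbv15 of -0.57. By TPM shares Trbv20 had a ratio of -0.99, just inside 2-fold.

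Of the alpha segments, Trav14n-3 differed most with depletion in IPF-LC. It had 15 counts (1.04%) with isotype antibody and 58 counts (4.12%) after depletion, a log2 ratio of 1.98 (1.15 to 2.91). Its near copies went the other way in count, Trav14d-3-dv8 from 28 to 11 and Trav14-3 from 20 to 16, and with the 3 copies summed the ratio was 0.47 (-0.02 to 0.96). Trav12-3 went from 27 to 13 counts, a ratio of -1.02 (-2.10 to -0.02), and with its copies summed -0.29 (-0.78 to 0.19). No Trav was past 2-fold once copies were summed. By subgroup, Trav15 went from 47 counts (3.27%) to 22 counts (1.56%), a ratio of -1.06 (-1.86 to -0.30). It lies outside the rule for named segments and was chosen after its values were seen. Its members with counts include segments with dv in their symbols, which can also join to the delta chain. Trdc, the delta constant region, went from 487 to 358 counts, and the part of delta chain transcripts was not tested.

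With CD4 depletion in LC, the share of Trbv2 was higher and that of Trbv20 lower. Of the 45 segments, 5 were higher by 2-fold or more in the depleted library and 1 was lower, 13.3% in either direction. Over all genes, 5.46% were higher and 14.5% lower, 20% in either direction. The share of segments that were higher was thus above that of all genes, and the share that were lower was below it. Trav9d-3 and Trav9n-3, both among the 5, have the same transcripts. With copies summed, 3 of 39 were higher and 2 lower. The counting interval lay above 0 for 7 segments and below 0 for 7. The median absolute log2 ratio was 0.42, against 0.35 over all genes and 0.65 over the 5619 genes of like mean count. Trbv2 went from 61 counts (2.27%) to 176 counts (4.88%), a log2 ratio of 1.11 (0.68 to 1.55). Trbv20 went from 110 counts, 4.09% (3.40 to 4.90), to 55 counts, 1.53% (1.17 to 1.98), a ratio of -1.42 (-1.92 to -0.94). Trbv20 was the only segment of the 45 at least 2-fold lower after depletion in both models, and its largest value was in the isotype LC library. The ratios of Trbv3 and Trbv12-1 were 0.48 and 0.46 (0.21 to 0.72), and those of Trbv17 and Trbv19 were -0.52 and -0.42 (-0.65 to -0.19).

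Since the Trbv sum was 0.40 higher on the log2 scale in the depleted LC library, shares and levels part ways there. On TMM-scaled CPM the ratio was 1.51 for Trbv2, -1.02 for Trbv20 and 0.86 for Trbv12-1, and Trbv19 had -0.02, so the lower share of Trbv19 was not a lower level. Depletion in LC also went with macrophage marker sums of 2400 against 37.9 CPM, and in IPF-LC with 2520 against 818 CPM. Foxp3 was higher after depletion in both models, while Cd4 and Zbtb7b were lower in IPF-LC and slightly higher in LC. Whether any of this bears on the Trbv20 shares was not tested.

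The alpha segments past 2-fold with depletion in LC were all higher. Trav7d-4 went from 13 counts (0.89%) to 49 counts (3.36%), a log2 ratio of 1.91 (1.01 to 2.92), but the 3 Trav7-4 copies together had 94 and 115 counts, a ratio of 0.29 (-0.12 to 0.70). Trav6-5 went from 11.9 to 30 counts, a ratio of 1.33 (0.31 to 2.42), and 0.78 (-0.10 to 1.70) with its copies. Trav9d-3 and Trav9n-3 have the same transcripts and equal counts, 15 in the isotype and 33.5 in the depleted library, a ratio of 1.15 (0.26 to 2.16) each. With copies summed Trav9-3 kept 1.15 (0.51 to 1.83), from 30 to 67 counts, and Trav7-3 had 1.11 and Trav7-5 -1.33, the latter pair lying outside the rule for named segments. The lowest by the counting bound nearest 0 were Trav12-2 at -0.51, Trav14n-3 at -0.78 and Trav5-4 at -0.84. With copies summed these were -0.10 (-0.44 to 0.23), -0.89 (-1.44 to -0.35) and -0.95 (-1.65 to -0.28).

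**Figure D5:**
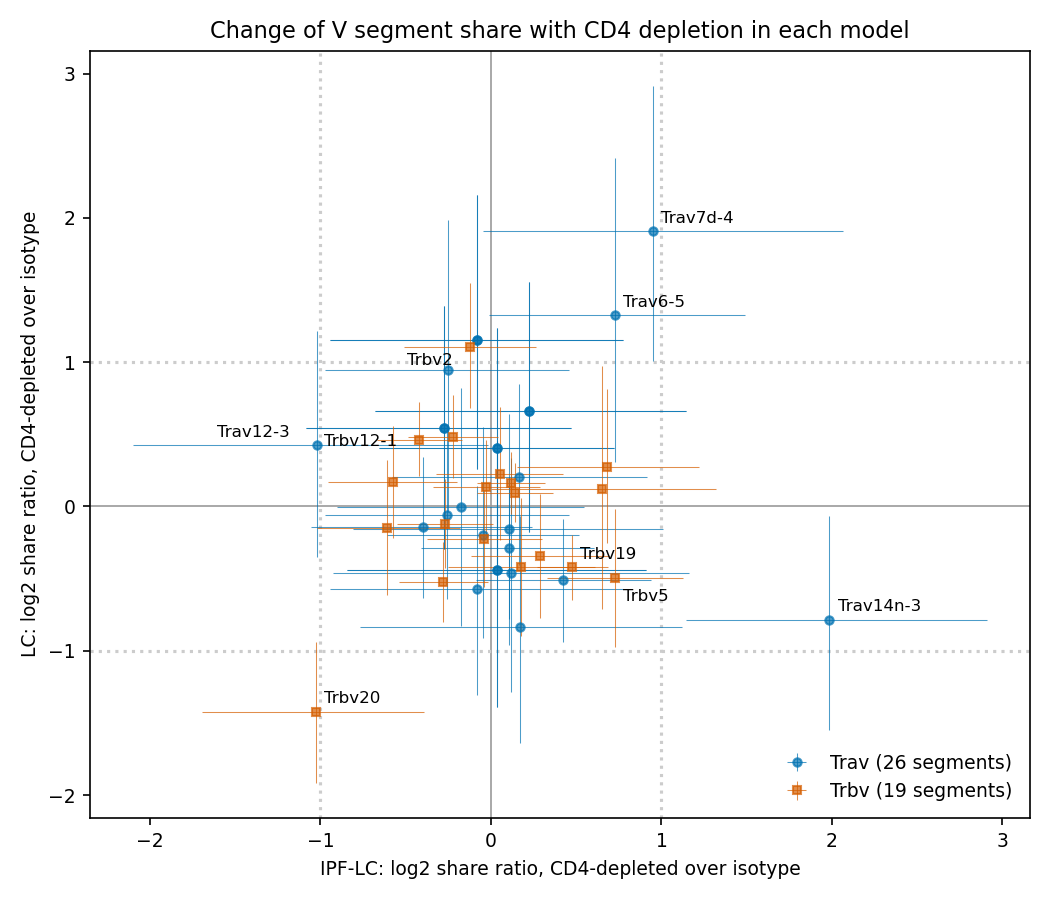
Log2 ratio of share, CD4-depleted over isotype, in LC (vertical axis) against IPF-LC (horizontal axis) for the 26 Trav and 19 Trbv with a mean of at least 20 counts, with exact 95% counting intervals; dotted lines mark 2-fold. Trbv20 lies past 2-fold on the lower side of both axes, and Trav14n-3, Trbv5 and Trbv19 lie to the right of 0 for IPF-LC and under 0 for LC.

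The depletion ratios of the models were not alike across segments. For the 26 Trav, Pearson's r between the IPF-LC and the LC ratio was -0.05 and Spearman's rho -0.13, with the same sign in 12. For the 19 Trbv, r was 0.17 and rho -0.07, with the same sign in 10. Trav copies with the same transcripts and equal counts, such as Trav9d-3 and Trav9n-3, entered as separate points with identical ratios. The points of a class also share their libraries and sum to a whole, so these are descriptions. Segments that moved in opposite directions, with both counting intervals off 0, were Trav14n-3, Trbv5, Trbv12-1 and Trbv19.

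Between the models with isotype antibody, Trbv20 had the lowest Trbv ratio of IPF-LC over LC. Of the 45 segments, 2 were higher in IPF-LC by 2-fold or more and 3 lower, 11.1% in either direction. Over all genes, 4.87% were higher and 10.9% lower, 15.8% in either direction. Trbv20 had 1.88% in IPF-LC and 4.09% in LC, a log2 ratio of -1.12 (-1.59 to -0.67), or -0.78 on TMM-scaled CPM. Trbv2 had 3.50 and 2.27%, a ratio of 0.63, and Trbv16 9.40 and 12.2%, a ratio of -0.38. Trav12-2 had 4.03% in IPF-LC and 7.90% in LC, a ratio of -0.97, and -0.63 (-1.002 to -0.25) with its copies summed. Trav14n-3, Trav5-4, Trav6-5 and Trav8n-2 were past 2-fold, at -1.56, -1.02, 1.14 and 1.49, and none of the 4 stayed there with copies summed. The Trav15 subgroup had 47 against 12 counts, a ratio of 1.99 (1.05 to 3.04). It too was chosen after its values were seen. Trdc had 487 against 298 counts. With depletion in LC, Trav15 went from 12 to 20 counts, a ratio of 0.73 (-0.37 to 1.90), while Trdc went from 298 to 164. After depletion, Trav15 had 22 counts in IPF-LC and 20 in LC, a ratio of 0.19 (-0.75 to 1.14), while Trdc had 358 and 164. The part of delta chain transcripts in the Trav15 counts was not tested.

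After CD4 depletion, Trbv5 had the largest Trbv difference between the models. Past 2-fold were 2 of the 45 segments that were higher in IPF-LC and 1 that was lower, 6.67% in either direction. Over all genes, 8.8% were higher and 6.86% lower, 15.7% in either direction. Trbv5 had 4.15% in IPF-LC and 2.05% in LC, a log2 ratio of 1.02 (0.60 to 1.44), or 0.92 on TMM-scaled CPM. Trbv19 had 13.3 and 8.93%, a ratio of 0.57, and Trbv26 1.54 and 0.89%, a ratio of 0.80. Trbv12-1 had 6.89 and 10.04%, a ratio of -0.54, and Trbv2 3.21 and 4.88%, a ratio of -0.61. Trav14n-3 was higher at 1.21 and Trav12-3 lower at -1.37, and with copies summed these were 0.97 (0.43 to 1.53) and -0.17 (-0.66 to 0.32). The comparisons of models and of treatments share libraries, so their values are not separate evidence.

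Usage overlapped widely between libraries. The overlap, the sum over segments of the smaller of the shares, was 89.7, 88.1, 89.7 and 88.4% for Trbv, in the order depletion in IPF-LC, depletion in LC, models with isotype antibody and models after depletion. For Trav it was 77.9, 74.9, 72.1 and 77.7%, and 86.96, 83.6, 80.6 and 87.0% with copies summed, which is closer to the Trbv values.

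A test over all libraries was possible only with treatment and model as additive terms, in edgeR's quasi-likelihood fit of 13050 genes, of which 70 were V segments. At a Benjamini-Hochberg adjusted p under 0.05 it called 0 of the 70 segments for treatment and 0 for model, and 0.0% of all genes for either. At an unadjusted p under 0.05 it also named 0 of the 70, against 10% of all genes for treatment and 2.04% for model. The smallest adjusted p of a segment for treatment in edgeR was 0.787, for Trbv20, with a log2 change of -1.06 (SE 0.80), lower after depletion in 2 of 2 models. DESeq2 and limma-voom in the same design also called 0 of the 70 at either threshold, while DESeq2 called 100 genes higher and 381 lower for treatment. The fit had 1 residual degree of freedom and a common dispersion of 0.2275.

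The V segments of invariant T cells had low counts. Trav11, the alpha V of invariant natural killer T cells, was listed at 0 in every library. Its copy Trav11d, identical to it over 342 aligned bases, had 0, 1, 0 and 17 counts, and reads of either could be assigned to the other, so the 0 of Trav11 sets no limit on its use. The 3 Trav11 copies together had 0, 1, 2 and 17 counts, and the 17 counts were 1.16% (0.73 to 1.86) of Trav counts in the depleted LC library. The 4 listed markers of natural killer T cells, none of which is found in those cells alone, did not move together: Zbtb16 had 1, 1, 71 and 0 counts, Klrb1c 255, 123, 248 and 76, Tbx21 679, 1277, 1103 and 617, and Slamf6 2588, 2409, 1980 and 3056. Trav1, the alpha V of MAIT cells, had 18, 3, 12 and 14 counts, or 1.251, 0.21, 0.82 and 0.96%. The partner J segments Traj18 and Traj33, printed above, could not be counted.

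Some Trav segments can also join to the delta chain and carry dv in their symbols. The 10 of them together had 5.84% (4.74 to 7.17), 5.49% (4.404 to 6.79), 5.37% (4.32 to 6.64) and 3.74% (2.91 to 4.87) of Trav counts. Some have near copies without dv, and Trav15d-2-dv6d-2 has the same transcripts and equal counts as Trav15n-2. The dv share therefore depends on how reads were split between copies, which its intervals do not cover. Their lowest share was in the depleted LC library, with an interval that overlaps those of the others. Trdc, the delta constant region, was lowest there too, at 31.2, 23.0, 19.3 and 10.5 CPM, as were the gamma and delta constant genes in sum, at 73.7, 47.8, 55.1 and 19.3 CPM. Their part in the Trav shares was not tested.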

How the data were processed

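Each library has a deposited gene table in the layout of RSEM results. Per the submitters' processing notes, MultiQC 1.25.2, RSEM 1.3.3, STAR 2.7.11a and fastp 0.23.4 were used with GRCm39; roles and annotation release are not given in the sources used here. The expected counts the authors deposited are reads estimated for each gene, not normalised, in which RSEM divides reads that fit several segments. The deposited TPM values are scaled by effective length within each library, and the deposited FPKM values were not used. Per the file headers, length and effective length are in bases. Gene types and sequences came from GENCODE M21 (GRCm38) and no coordinates are given. A V segment's count holds fragments assigned to the annotated V transcript, which ends before J.

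Shares are a segment's expected count over the sum of its class, with Wilson 95% intervals (scipy 1.17.1), and share ratios have exact conditional binomial 95% intervals. Both cover counting error only. Diversity intervals are multinomial. CPM used TMM factors of 1.01, 0.961, 1.03 and 0.994 from edgeR 4.0.16. For the additive model, run two-sided in R 4.3.3 with no interaction term, expected counts were rounded to whole numbers; DESeq2 1.42.0 and limma 3.58.1 were alternatives, and edgeR was tested on simulated data. Copies were aligned with Biopython 1.88. Groups came from the labels alone.

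Segments named are the 5 of largest mean share per class, the 3 highest and 3 lowest ratios per comparison and class by the counting bound nearest 0 among those with a mean of at least 20 counts, and a set given by name: Trav11, Trav11d, Traj18, Trav1, Traj33, Trbv1, Trbv5, Trbv12-1, Trbv12-2, Trbv13-1, Trbv13-2, Trbv13-3, Trbv19, Trbv29 and Trbv31. The members and lists were chosen with earlier results of these data known.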

Additional observations from a re-analysis of the deposited data

Results flagged for a closer look

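Among the 45 segments compared, 4 went in opposite directions with CD4 depletion in the 2 models, with the counting interval off 0 in each. Trbv19 had a log2 share ratio of 0.48 in IPF-LC and -0.42 in LC, and Trbv5 had 0.73 and -0.49. Trbv12-1 had -0.42 and 0.46, and Trav14n-3 had 1.98 and -0.78. The difference between the models was not tested, since each ratio rests on 1 library per group. On TMM-scaled CPM the LC ratios of Trbv19 and Trbv5 were -0.02 and -0.09. With the copies of Trav14n-3 summed, the ratio was 0.47 (-0.02 to 0.96) in IPF-LC and -0.89 (-1.44 to -0.35) in LC. The IPF-LC interval then spanned 0.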

How the results depend on the processing

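No paired analysis was possible because each group has 1 library and the labels carry no replicate numbers; leaving out a replicate was not possible either. Of the values recomputed for 38 main results, 57 moved and 75 did not.

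With copies summed, the Trav inverse Simpson index was 23.5, 22.8, 20.8 and 20.9 in the library order of the report. By subgroup it was 10.01, 8.79, 9.21 and 9.10 for Trav and 9.07, 9.32, 9.36 and 8.60 for Trbv. Without segments under a mean of 20 counts it was 22.1, 21.6, 17.9 and 22.1 for Trav. The exponential of Shannon entropy was 63.6, 62.0, 59.7 and 60.01 for Trav and 16.3, 16.1, 16.01 and 15.8 for Trbv. By TPM shares the Trbv index was 14.4 in the depleted IPF-LC and 14.2 in the isotype LC library. At 10 counts or more, 49, 45, 47 and 49 Trav were detected. By deposited TPM the Trbv sum changed by 0.30 with depletion in LC.

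The number of segments past 2-fold is given in the order depletion in IPF-LC, depletion in LC, models with isotype antibody and models after depletion. With a minimum mean of 20 counts it was 3, 6, 5 and 3 of 45, or 6.67, 13.3, 11.1 and 6.67%. With a minimum of 10 it was 13, 14, 12 and 11 of 66, or 19.7, 21.2, 18.2 and 16.7%. With a minimum of 100 it was 0, 1, 0 and 0 of 12. The shares over all genes given above are for a minimum mean of 20 counts, so they do not match the other minimums. With copies summed, the number past 2-fold was 1, 5, 1 and 1 of 39. When the whole interval had to lie beyond 2-fold, it was 1, 1, 0 and 0 of 45. By subgroup, an alternative chosen after seeing the data, it was 2, 2, 2 and 1 of 29. Trav overlap was 86.96, 83.6, 80.6 and 87.0% with copies summed and 92.2, 90.9, 89.3 and 91.3% by subgroup. The causes were not tested, beyond fewer or more segments being compared.

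The direction reversed for Trav12n-3 after depletion (IPF-LC over LC, -0.17 with copies summed), for Trav3-3 with isotype antibody (0.016 with copies summed) and for Trbv19 with isotype antibody (0.023 on TMM-scaled CPM). The additive model called 0 segments in every tool, filter and scaling run. Depth limits the Trav most: 1 count is 0.0685 to 0.0711% of the Trav counts.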

Other observations

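Trav19, which has no d or n copy in the tables, lay under the minimum mean of 20 counts and was chosen after its values were seen. It had 32 counts (2.22%, 1.58 to 3.12) in the isotype IPF-LC library, 12 counts (0.85%) in the depleted IPF-LC library, 4 counts (0.28%) in the isotype LC library and 6 counts (0.41%) in the depleted LC library. Both IPF-LC values were above both LC values. In the additive edgeR model its log2 change for IPF-LC over LC was 1.94 (SE 1.69), with an adjusted p of 0.999963.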
